A study of Rattus norvegicus with 65 samples.

Results

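Long noncoding RNA (lncRNA) genes are transcribed but annotated with no protein, and the 200 most abundant of them in the rat hypothalamus are described here. They were chosen by their level alone. Counts of each library were divided by the library total and scaled to a total of 1e+06, a unit known as CPM, averaged over all 65 libraries, and the 200 highest of 7360 genes with the biotype lncRNA were kept, out of 38513 genes in all. Because the level made the choice, levels are given as a description without a test.

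RNA sequencing was performed on 65 hypothalami of male Wistar rats that were 9 to 10 weeks old at the start. Animals randomized to the surgical, weight-matched and hormone groups had eaten a high-fat diet for 6 weeks before the intervention. The groups comprised 14 animals with Roux-en-Y gastric bypass (RYGB), 11 sham-operated animals, 7 body-weight-matched (BWM) animals whose food was restricted to the intake of RYGB animals, and 8 saline-treated animals. A further 5 animals received liraglutide at 0.4 mg/kg/day, 4 received PYY3-36 at 0.1 mg/kg/day by osmotic minipump, and 10 received PYY3-36 + liraglutide, while 6 animals carry the label lean. A group fed low-fat diet only is mentioned in the study, but no source ties the label lean to it, so the diet of the lean animals is left unstated here. After the intervention, animals of the 7 other groups except BWM could choose between high-fat and low-fat food, and tissue was taken 4 weeks after it, following 10 h of fasting. Experiments ran in 2 periods, batch A with 37 and batch B with 28 libraries. BWM and lean animals were in batch A only, and liraglutide- and PYY3-36-treated animals in batch B only. Libraries were made from poly-A RNA of whole hypothalamus, so fewer cells of a type and less RNA per cell cannot be told apart.

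Library totals ran from 20041010 to 36539941 counts, with a median of 27379945. The hypothalamic label was checked with 18 neuropeptide and transcription factor genes. Of these, Otp, Fezf1, Nr5a1 and Sim1, transcription factors of hypothalamic nuclei, were all at or under 1 CPM in 8 libraries, namely sham 2, 6 and 10, BWM 1, lean 2, liraglutide 3, PYY3-36 2 and PYY3-36 + liraglutide 8. None of the RYGB or saline libraries was among them. BWM 1 and sham 10 had the highest summed striatal markers of their groups, 5350 and 5310 CPM against medians of 469 and 644 CPM. Sham 2, lean 2 and PYY3-36 2 had the highest cortical sums, 1740, 866 and 766 CPM against 72.6, 105 and 121 CPM. Liraglutide 3 was also highest in striatal and PYY3-36 + liraglutide 8 in cortical markers, and sham 6 in neither. Outside the 8, saline 4 and RYGB 6 reached 1170 and 912 CPM of cortical markers. BWM 5 stood apart by pituitary genes, whose summed level over 11 markers was 79600 CPM against a group median of 460 CPM.

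LncRNA genes act in several ways. Some work as RNA in the nucleus, where they bind chromatin or splicing factors, some bind translation factors or microRNAs in the cytoplasm, and others are precursors whose introns or exons give microRNAs or small nucleolar RNAs. Many start next to a protein coding gene in the opposite direction, from a shared promoter. In brain, lncRNA genes are known for expression that is restricted to regions and cell types.

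All 200 genes were detected in every library, and all 200 passed the filter on low counts, among 21871 genes tested. They held 74.3% of all lncRNA counts but 0.432 to 0.843% of a library, with a median of 0.598%. The distribution was steep, and the first gene held 14.1%, the first 3 held 28.7% and the first 50 held 72.2% of the counts of the 200. The threshold fell in a flat stretch. LOC108352782, LOC108352299 and LOC102548752 at the last 3 ranks had means of 6.03, 5.92 and 5.89 CPM, and LOC103694327, LOC102554754 and LOC108349515 just outside had 5.87, 5.78 and 5.71 CPM. Ranking by the median over libraries kept 195 of the 200, and ranking per length, after division by exon length and rescaling (TPM), kept 133.

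Most of these genes have no given name, and 185 of 200 carry a LOC symbol. Of 101 that matched a gene of the newer RefSeq assembly GRCr8 by identifier, 88 are still lncRNA genes there, 12 are protein coding and 1 is a pseudogene. By position in Rnor_6.0, 63 lay farther than 5 kb from any protein coding gene and 48 overlapped such a gene on the opposite strand. A further 35 were head to head with such a gene, starting within 1 kb of it on the opposite strand. Combined exon length ranged from 109 to 21617 bases with a median of 2473, against 1488 over all lncRNA genes. Reads that matched several places or genes were split between them, and 35.6% of the values above 0 of the 200 genes were not whole, against 30.3% of all values. The pairs LOC103693265 with LOC100911627, LOC100911160 with LOC103690159 and LOC100912181 with LOC100909847 had values within 5% of each other in every library, so the members of each pair cannot be told apart.

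Meg3, listed as RGD1566401, was the most abundant by CPM among the genes ranked, which include none under the symbol Malat1 or Neat1. It is a maternally expressed imprinted gene whose RNA is retained in the nucleus, at chr6:133658937-133691130 on the plus strand of Rnor_6.0. Its lowest, median and highest levels were 369.5, 1195 and 2273 CPM in batch A and 305.6, 391 and 615 CPM in batch B. Bc1, a short RNA made by RNA polymerase III that represses translation in dendrites, followed at chr1:218075359-218075511 with 300.7, 602 and 2358 CPM in batch A and 182, 291 and 771 CPM in batch B. Miat, a nuclear RNA of neurons at chr12:50447251-50461859, had 95.4, 443 and 774 CPM in batch A and 33.3, 152 and 208 CPM in batch B. In all 3 genes the batches overlapped, but the median of batch A was above every value of batch B for Meg3 and Miat. Per length the order was different, since Bc1 has 153 exon bases and a mean of 7990 TPM, against 998.9 TPM for Meg3 and 82.5 TPM for Miat.

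The promoters of Meg3 and Bc1 are shown because they represent the different polymerases behind the 2 highest genes. Sequences are from RefSeq on GRCr8, where 91 of the 200 genes had an entry of 300 bases, 250 before and 50 after the start. For Meg3 the window is chr6:134273806-134274105 on the plus strand, with the cyclic AMP response element TGACGTCA in capitals and, downstream of it, a run in capitals in which the TATA box TATAAA is found on both strands with overlap. For Bc1 the first 50 transcribed bases are given, chr1:209502897-209502946 on the plus strand, with the polymerase III A box in capitals.
Meg3: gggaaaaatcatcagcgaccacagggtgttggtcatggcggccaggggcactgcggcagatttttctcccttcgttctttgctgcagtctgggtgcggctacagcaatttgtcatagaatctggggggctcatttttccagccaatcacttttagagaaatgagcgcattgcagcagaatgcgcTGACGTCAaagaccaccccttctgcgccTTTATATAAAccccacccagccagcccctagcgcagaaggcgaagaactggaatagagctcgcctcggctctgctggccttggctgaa
Bc1: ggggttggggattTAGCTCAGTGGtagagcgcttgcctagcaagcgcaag

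Searched on both strands, TGACGTCA was found in 1.91% of 27457 promoters of this length and in 3 of the 91 (3.3%), Meg3, Lnc134 and Gas5. TATAAA was found in 14.3% of all promoters and in 13 of the 91 (14.3%). The A box occurred in 1.4% of all windows and in 3 of the 91, Bc1, Rhno1 and LOC100360470. Promoters of the 91 genes held a median of 13 CpG dinucleotides against 7 over all promoters. The 22 that were head to head with a protein coding gene held 23.5, and the 30 that lay far from one held 8.5. A match describes the letters in these windows and was not tested as a binding site.

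Next in order by CPM were Oip5-as1 (LOC100910827), an antisense RNA known as Cyrano that binds miR-7, with a mean of 222 CPM, and LOC100911992, the host gene of Mir9-1 at chr2:187573857-187596346, with 199.8 CPM. LOC108349561, at chr1:91070292-91071030 within the prolidase gene Pepd on the same strand, had 165 CPM. LOC100911029 followed with 136 CPM and LOC100910455 with 124 CPM, and every value above 0 of LOC100910455 was fractional, so that its reads were shared with other places. LOC102546820 had 72.1 CPM, Tug1, a nuclear RNA that associates with chromatin regulators, 71.6 CPM, LOC102555617, protein coding in GRCr8, 70.3 CPM, and LOC108348193 66.2 CPM. In all 9 the batches overlapped widely, as the plot of the 12 highest genes shows.

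**Figure D1:**
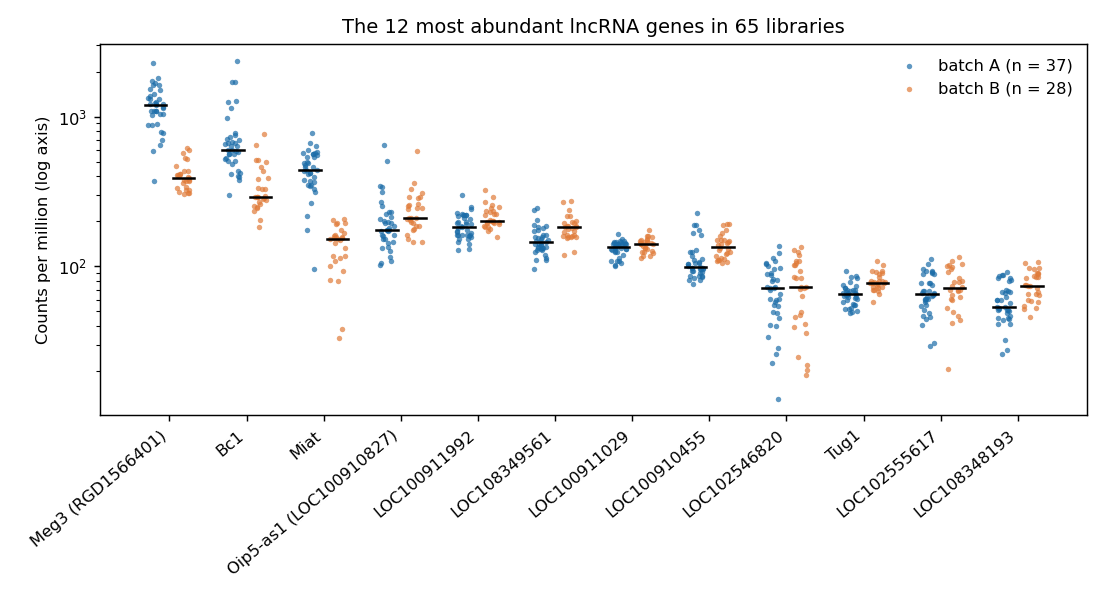
CPM on a log axis of the 12 most abundant lncRNA genes. Each point is a library, blue for batch A (n = 37) and orange for batch B (n = 28), and black bars are medians. Meg3, Bc1 and Miat are lower in batch B, with medians of 391, 291 and 152 CPM against 1195, 602 and 443 CPM in batch A.

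Within a batch the groups overlapped in Meg3. In batch A its group medians were 889 CPM in sham-treated, 1195 in RYGB-treated, 1088 in BWM, 1381 in lean, 1224 in saline-treated and 1245 CPM in PYY3-36 + liraglutide-treated animals, and the sham libraries alone ran from 649 to 1816 CPM. In batch B the group medians lay between 343 CPM with PYY3-36 and 441 CPM in sham-treated animals. Bc1 was most spread in batch A, where sham libraries ran from 412.5 to 1710 CPM around a median of 1273 and RYGB libraries from 378 to 2358 CPM around 578.5. Its medians in batch B lay between 269 CPM in sham-treated and 391 CPM in liraglutide-treated animals.

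Miat was the only one of the 3 in which RYGB and sham libraries did not overlap within a batch. In batch B the 3 RYGB libraries had 194 to 208 CPM and the 6 sham libraries 33.3 to 154 CPM, and the 5 saline libraries had 92.8 to 161 CPM. In batch A the RYGB libraries had 95.4, 538 and 665 CPM and the sham libraries 216.5, 372 and 774 CPM, with full overlap.

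MicroRNAs are cut from longer transcripts, and 7 of the 200 genes contain 10 microRNA genes on their own strand, with 16 different mature sequences in RefSeq. Those of the hosts named in the comparisons are shown because they identify which microRNA families the hosts belong to. Capitals mark the seed, bases 2 to 8, and none of the 16 sequences shared its seed with another. The counts measure the host transcript and not the mature microRNA.
rno-miR-9a-5p (LOC100911992 and Mir9-3hg): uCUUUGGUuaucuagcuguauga
rno-miR-3099 (LOC102547903): uAGGCUAGaaagagguugggga
rno-miR-770-5p (Meg3): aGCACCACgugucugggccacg
rno-miR-100-5p (Lnc215): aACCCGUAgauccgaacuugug
rno-let-7a-5p (Lnc215): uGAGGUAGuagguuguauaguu
rno-miR-421-3p (Ftx): aUCAACAGacauuaauuggg
rno-miR-374-5p (Ftx): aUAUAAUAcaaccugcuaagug
rno-miR-135b-5p (LOC108352531): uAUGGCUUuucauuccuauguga

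The spread within group and batch, as an SD on the log2(CPM + 1) scale, ran from 0.12 to 1.08 over the 200 genes with a median of 0.35, against 0.25 for protein coding genes above the same level. LOC102553190, head to head with Lhx1, LOC100911923, beside Nkx2-1, and LOC102548116, head to head with Pou3f1, varied most, with SDs of 1.08, 1.06 and 1.06. Lhx1 and Nkx2-1 encode transcription factors of hypothalamic regions, and these neighbours also varied, with SDs of 0.68 and 1.12, as did Pou3f1 with 0.94. In the 8 libraries low in hypothalamic transcription factors, LOC102553190 had a lowest, median and highest level of 0.245, 0.758 and 3.7 CPM, against 0.121, 7.77 and 20.9 CPM in the other 57. LOC102548116 stood the other way, with 8.96, 17.7 and 29.5 CPM in the 8 libraries and 1.23, 5.18 and 38.2 CPM in the others. The smallest SDs belonged to LOC100365289 with 0.12, Tmem80 with 0.13 and LOC108349703 with 0.14. LOC100365289, which lies opposite to Ppp2r3b, ranged from 37.3 to 66.8 CPM over all libraries.

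RYGB-treated and sham-treated animals were compared in both batches to see which lncRNA genes differ after surgery. Few of them changed by more than 1 on the log2 scale, and more were downregulated than upregulated at smaller sizes. With edgeR's quasi-likelihood test and Benjamini-Hochberg adjustment over all genes tested, a gene was called when its adjusted p was under 0.05 and it moved by over 1 on the log2 scale in either direction. By this rule 2 of the 200 were upregulated and 0 downregulated, against 2.0% and 0.370% of all genes tested. By adjusted p alone, 4 of the 200 (2%) were upregulated and 24 (12%) downregulated, against 6.52% and 6.53% of all genes. With DESeq2 the same split was 10 upregulated and 25 downregulated. For DESeq2 and the other alternative fits below, the share of all genes is not given here, so their counts describe the 200 only. The median log2 fold change over the 200 genes was -0.15, against -0.02 over all genes. Levels in this comparison are over both batches unless a batch is named. Batch A holds 11 RYGB and 5 sham libraries and batch B 3 and 6, so group medians also carry the batch difference. The log2 fold changes come from a fit with a term for batch.

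LOC102554158, a gene of 579 exon bases on an unplaced scaffold that carries no protein coding gene, was upregulated. Its lowest, median and highest levels were 0.946, 8.32 and 13.1 CPM in RYGB-treated and 1.29, 2.61 and 7.81 CPM in sham-treated animals. The groups overlapped over both batches, while in batch B the 3 RYGB libraries at 8.20 to 8.86 CPM were above all 6 sham libraries at 1.29 to 3.27 CPM. RYGB was higher than sham by a log2 fold change of 1.26 ± 0.28 (SE, adjusted p = 0.00316), by 0.85 within batch A and 2.06 within batch B. Saline-treated animals had 1.99, 4.94 and 10.1 CPM, between the surgical groups, and against them the log2 fold change was 0.30 (adjusted p = 1). Without the 8 libraries low in hypothalamic transcription factors, the log2 fold change of RYGB vs. sham was 1.19 (adjusted p = 0.0226). In the fit of all 65 libraries, LOC102554158 was also lower in batch B than in batch A, by -0.53, and passed by adjusted p.

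LOC102547903, host of Mir3099 and overlapping the imprinted deubiquitinase gene Usp29 on the same strand at chr1:70017371-70210684, was the other upregulated gene. Its levels were 1.68, 10.3 and 19.3 CPM in RYGB-treated and 2.45, 3.19 and 10.1 CPM in sham-treated animals, with overlap, and 2.30, 4.999 and 13.9 CPM in saline-treated animals. LOC102547903 differed by 1.06 ± 0.29 on the log2 scale (adjusted p = 0.0131), with 1.09 within batch A and 1.30 within batch B, and 0.43 (adjusted p = 1) against saline. Without the 8 libraries it was 0.91 and no longer passed (adjusted p = 0.0605).

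A further 26 genes passed by adjusted p without reaching the size limit, and those named from here to the end of this comparison were chosen after their values were seen, unless they are named elsewhere as well. LOC103694297, opposite to the phosphorylase kinase subunit gene Phkb, and LOC108352782, within the MYC antagonist gene Mxd4, were higher by 0.87 ± 0.21 and 0.79 ± 0.26. LOC103694297 had 4.84, 16.4 and 21.9 CPM in RYGB-treated and 4.34, 7.05 and 16.5 CPM in sham-treated animals, and the groups overlapped. The levels of LOC108352782 were 0.540, 8.82 and 13.4 CPM against 1.15, 2.84 and 8.60 CPM, also with overlap.

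Among the 12 most abundant genes, 2 (16.7%) were downregulated by adjusted p, against 12% of the 200 and 6.53% of all genes, and none was upregulated. LOC100911992, the Mir9-1 host, had 128, 182 and 225 CPM in RYGB-treated and 170.5, 234 and 323 CPM in sham-treated animals, with a log2 fold change of -0.37 ± 0.12 (adjusted p = 0.0292). LOC108349561 within Pepd had 109.8, 140.2 and 203.5 CPM against 132, 188 and 273 CPM, with -0.44 ± 0.11 (adjusted p = 0.00713). Both pairs of groups overlapped, with RYGB animals reaching further down. A separate gene within Pepd, LOC100912309 at chr1:91168439-91171219, was lower by -0.58 ± 0.14 (adjusted p = 0.00499), while Pepd itself differed by 0.02 (adjusted p = 0.874).

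Of the 12 genes that GRCr8 lists as protein coding, 5 (41.7%) were downregulated by adjusted p, against 12% of the 200 and 6.53% of all genes. Ndufb1, a subunit of respiratory complex I, had 21.1, 30.5 and 62.9 CPM in RYGB-treated and 29.7, 48.9 and 55.8 CPM in sham-treated animals, with a log2 fold change of -0.54 ± 0.15 (adjusted p = 0.0158). Atp5mpl, a small protein of ATP synthase listed as LOC100912557, had 28.2, 36.1 and 68.4 CPM against 35.6, 52.8 and 69.7 CPM, with -0.44 ± 0.13 (adjusted p = 0.0197). Most values of Ndufb1 (89.2%) and Atp5mpl (96.9%) were fractional, so that part of their reads came from places they share. Tmem80, among the genes with the smallest SD, differed by -0.20 ± 0.06, LOC100912167 by -0.29 ± 0.09 and LOC108349570 by -0.48 ± 0.11.

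Among the 35 genes head to head with a protein coding gene within 1 kb, 6 (17.1%) were downregulated, against 12% of the 200. None of the neighbours of these 6 passed, and 5 of all 35 neighbours did. Lnc134, beside Klhl12, which encodes an adaptor of a ubiquitin ligase, had 8.59, 10.7 and 13.5 CPM in RYGB-treated and 11.3, 13.3 and 16.3 CPM in sham-treated animals. Its log2 fold change was -0.33 ± 0.09 (adjusted p = 0.00881), and that of Klhl12 was 0.10 (adjusted p = 0.337). LOC102551889, beside Prdm9, differed by -0.42 ± 0.11 (adjusted p = 0.0116), and LOC103693391, beside Vps53, by -0.41 ± 0.12 (adjusted p = 0.0155). Over 199 pairs of a lncRNA gene and its nearest protein coding gene, the lncRNA gene passed in 27 (13.6%), the neighbour in 22 (11.1%) and both in 3. The 3 are given as a description. LOC103691745 was lower by -0.37 and Ehmt1, a histone methyltransferase gene, higher by 0.25, LOC102546895 lower by -0.51 and Syt13 higher by 0.89, and LOC100360470 lower by -0.52 with LOC102551539 at -0.42.

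The promoter of Lnc134 is printed because Lnc134 passed this test and shares a start region with Klhl12 over a distance of 68 bases. The window is chr13:48451836-48452135 of GRCr8 on the minus strand and holds 34 CpG dinucleotides, with TGACGTCA in capitals.
Lnc134: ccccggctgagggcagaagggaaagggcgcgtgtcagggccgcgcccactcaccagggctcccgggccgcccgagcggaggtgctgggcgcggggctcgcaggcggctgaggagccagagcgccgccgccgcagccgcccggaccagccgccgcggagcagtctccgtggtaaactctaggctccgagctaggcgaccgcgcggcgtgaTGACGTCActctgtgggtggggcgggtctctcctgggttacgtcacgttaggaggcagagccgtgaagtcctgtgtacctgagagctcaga

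Among the 28 genes the largest decrease, in LOC103694321 opposite to the mineralocorticoid receptor gene Nr3c2, rested on a single library. Its levels were 6.95, 9.38 and 14.5 CPM in RYGB-treated and 10.8, 11.7 and 36.9 CPM in sham-treated animals, with a log2 fold change of -0.66 ± 0.21 (adjusted p = 0.0281). Without sham replicate 2, one of the 8 libraries, it was -0.28 (adjusted p = 0.33).

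All 28 genes kept their sign within batch A and within batch B, and 27 kept it against saline-treated animals, where none of the 28 passed. LOC103693391 was the exception, at 0.09 against saline. The 28 genes were picked from the fit of these same RYGB and sham libraries, and the saline comparison reuses the RYGB libraries. Agreement in sign is therefore favoured by the choice and is given as a description. Without the 8 libraries all 28 kept their sign and 13 passed, and 13 of the 28 passed in every one of 25 fits that left out 1 RYGB or sham library. The number of the 200 genes passing ranged from 15 without sham replicate 5 to 63 without RYGB replicate 11. The difference between batches in the response to RYGB passed for 0 of the 200 genes with edgeR, where 11 had an unadjusted p under 0.05, against 0.00% and 8.66% of all genes. In batch A the median sum of oligodendrocyte markers was 14900 CPM in RYGB-treated against 16900 CPM in sham-treated animals, and in batch B 19200 against 31300 CPM. For ribosomal protein genes it was 7780 against 8960 CPM in batch A and 8440 against 12000 CPM in batch B. Meningeal markers had 670 against 100 CPM in batch A and 205 against 222 CPM in batch B. Marker lists were also put into the fit, each as the mean log2(CPM + 1) of its genes and not as the sum. With these means for pituitary, choroid plexus and meninges, 9 genes were higher and 12 lower. With the means for habenula and thalamus, cortex and striatum, 26 genes passed. The part of the oligodendrocyte and ribosomal sums was not tested.

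**Figure D2:**
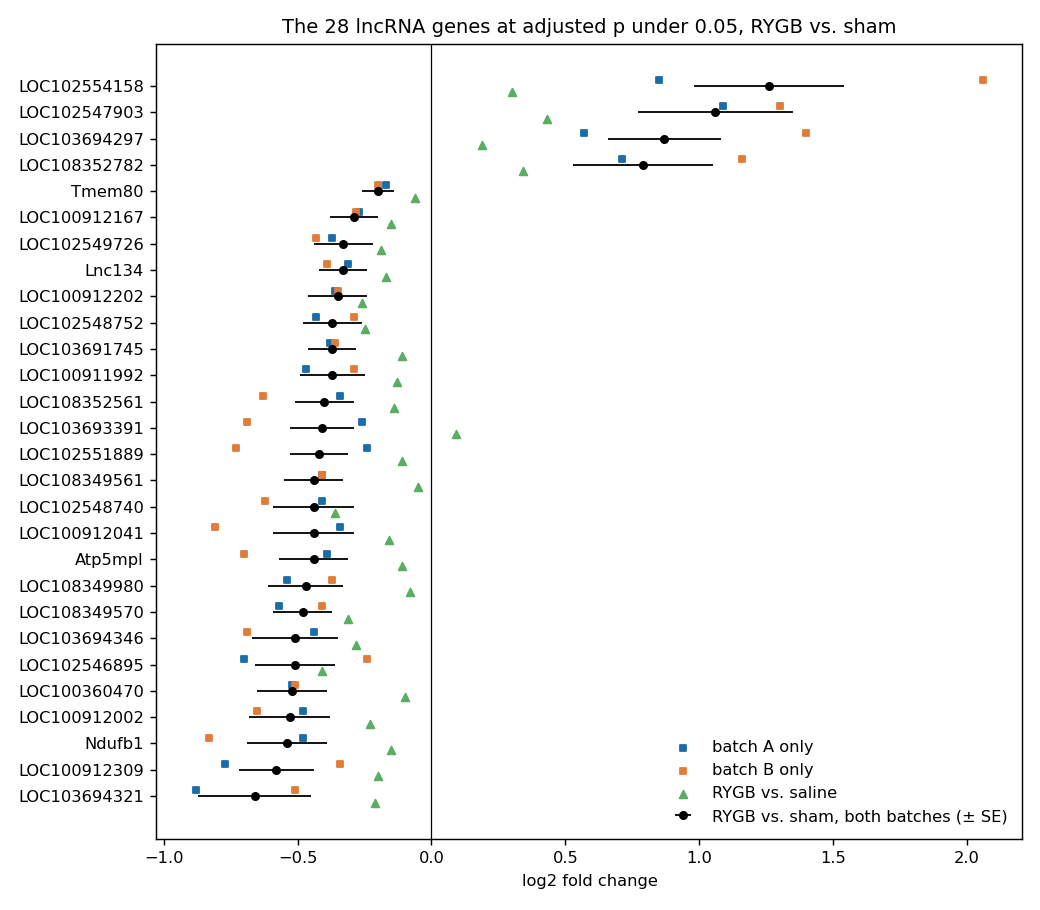
The log2 fold change of the 28 lncRNA genes at adjusted p under 0.05 in RYGB- vs. sham-treated animals. Black points with bars are the estimate over both batches ± SE, squares the estimates within batch A (blue) and batch B (orange), and green triangles RYGB vs. saline, which lie nearer to 0 and reach 0.09 on the other side for LOC103693391.

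**Figure D3:**
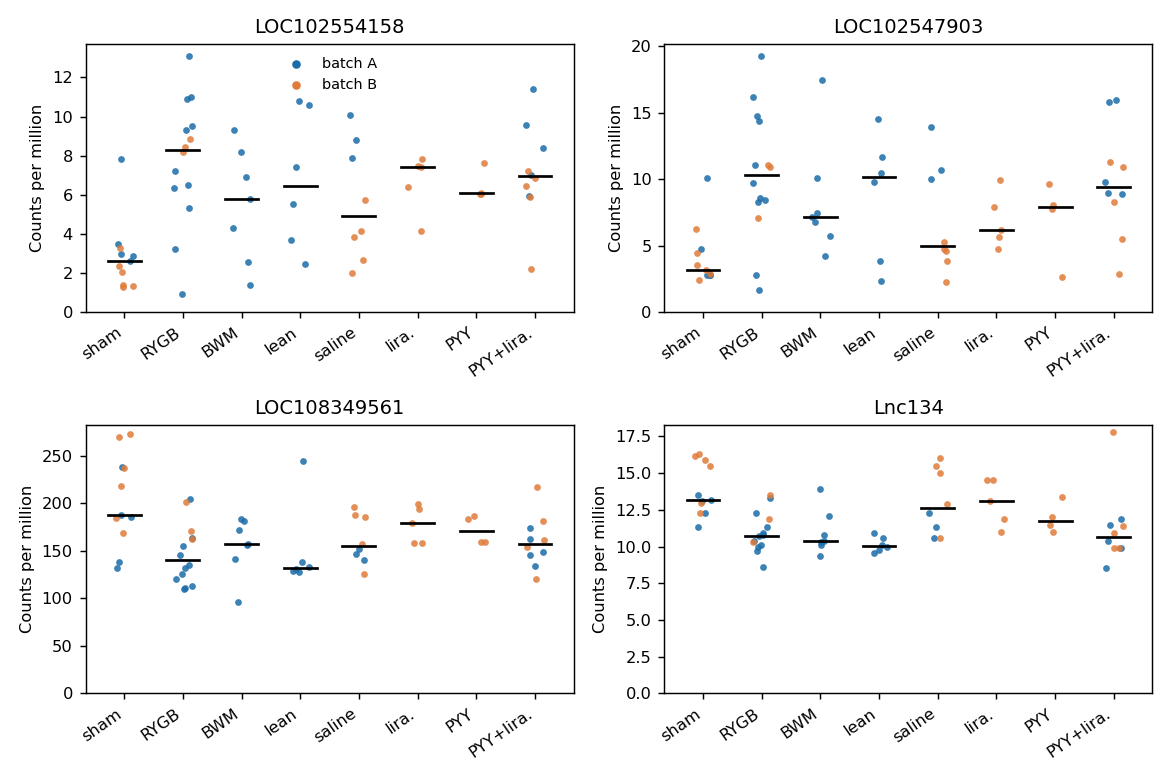
CPM of 4 lncRNA genes in the 8 groups. Each point is a library, blue for batch A and orange for batch B. Black bars are medians over all libraries of a group, with the batches in unequal parts. In LOC102554158 the sham median of 2.61 CPM is below that of RYGB at 8.32 CPM and of saline at 4.94 CPM, and in Lnc134 it is above RYGB at 13.3 against 10.7 CPM.

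None of the 12 genes found in the lists of known lncRNA genes passed in RYGB- vs. sham-treated animals. The log2 fold change was -0.16 ± 0.17 for Meg3, -0.49 ± 0.26 for Bc1, 0.40 ± 0.20 for Miat, -0.02 ± 0.25 for Oip5-as1 and -0.00 ± 0.08 for Tug1, with adjusted p of 0.175 or more. Gas5, the host of small nucleolar RNAs, was nearest to passing with -0.36 ± 0.13 (adjusted p = 0.0539). Ftx, a gene of the X inactivation centre, had -0.36 ± 0.14 (adjusted p = 0.073). Mir9-3hg had -0.21 ± 0.18, Thumpd3-as1 -0.25 ± 0.13, Zbtb11os1 0.09 ± 0.10, Brd3os -0.07 ± 0.09 and LOC102553190 0.41 ± 0.49, with adjusted p of 0.167 or more.

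BWM animals were compared with sham-treated animals to see what food restriction does, and with RYGB-treated animals, whose intake theirs was set to. No gene of the 200 passed in either comparison with edgeR, against 0.320% and 0.343% of all genes passing, and 0.274% called in each. At an unadjusted p under 0.05 there were 16 and 26 of the 200, against 12.3% and 12.6% of all genes, and the median log2 fold change was -0.09 and -0.04. DESeq2 also passed 0 of the 200 in both, as in the lean, sham vs. saline and hormone comparisons that follow. LOC100909539, head to head with the semaphorin gene Sema5a, was among the 3 with the smallest p in both. It had 3.61, 11.3 and 21.4 CPM in BWM animals, 2.81, 5.78 and 7.39 CPM in sham-treated and 3.84, 5.50 and 14.2 CPM in RYGB-treated animals, and all groups overlapped. BWM differed from sham by 0.73 ± 0.27 (adjusted p = 0.225), and RYGB from BWM by -0.73 ± 0.24 (adjusted p = 0.215). LOC103693584 had -0.59 ± 0.20 and LOC108349570 had -0.40 ± 0.14 in BWM animals vs. sham, while Thumpd3-as1 had -0.46 ± 0.14 and LOC100911553 had -0.36 ± 0.11 in RYGB-treated vs. BWM animals, with adjusted p of 0.166 or more. The comparisons share their BWM libraries, and the sham and RYGB libraries are those of the comparison above.

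Lean animals also differed from sham-treated animals in no gene of the 200 with edgeR, with 21 at an unadjusted p under 0.05 against 12.2% of all genes, and 0.00% of all genes passed. LOC100910558, beside the transcription factor gene Nfib, had 11.02, 14.9 and 21.8 CPM in lean and 15.7, 22.4 and 26.7 CPM in sham-treated animals, which overlapped. It differed by -0.51 ± 0.15 (adjusted p = 0.193). Lnc134 had 9.59, 10.01 and 10.9 CPM in lean animals, all below the lowest sham library at 11.3 CPM, and differed by -0.38 ± 0.11 (adjusted p = 0.195). LOC102551889 differed by -0.49 ± 0.15 (adjusted p = 0.209). Leaving out lean replicate 6 brought 11 of the 200 genes past the threshold, and leaving out sham replicate 1 brought 1. The share of all genes passing in those fits is not given here.

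Sham-treated and saline-treated animals, the controls of both treatments, differed in no gene of the 200 with edgeR, with 29 at an unadjusted p under 0.05 against 12.9% of all genes, while 0.0137% of all genes passed and 0.00914% were called. The median log2 fold change of the 200 was 0.09. The genes with the smallest p were LOC103693391 at 0.50 ± 0.13 (adjusted p = 0.176), LOC108349561 at 0.39 ± 0.12 (adjusted p = 0.232) and LOC102554158 at -0.96 ± 0.31 (adjusted p = 0.232). The sham libraries are those of RYGB vs. sham, so the comparisons are not independent. Without sham replicate 1, 2 genes of the 200 passed and 1 of them was called.

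Hormone treatments were compared with saline to see whether gut hormones alter lncRNA expression. Liraglutide, PYY3-36 and PYY3-36 + liraglutide changed 0 of the 200 genes each with edgeR, against 0.00%, 0.00% and 0.00457% of all genes passing. At an unadjusted p under 0.05 there were 7, 12 and 4 of the 200, against 2.08%, 7.54% and 2.53% of all genes, and the medians were -0.10, -0.15 and -0.05. With liraglutide the 3 smallest p fell on genes that lie close together on chromosome 1, each farther than 5 kb from any protein coding gene. LOC102546798 had 2.56, 2.94, 2.05, 1.74 and 2.37 CPM in the 5 liraglutide-treated animals and 2.46 to 7.22 CPM, with a median of 3.10, in the saline-treated animals of the same batch. Liraglutide differed from saline by -1.20 ± 0.39 on the log2 scale (adjusted p = 1), and by -1.25 ± 0.41 for LOC108349634 and -0.70 ± 0.30 for LOC108349633, also with adjusted p of 1. Nearly all values of these 3 genes were fractional.

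All 4 PYY3-36 libraries are in batch B, while 3 of the 8 saline libraries are in batch A. With PYY3-36, LOC103692811 had 22.9, 15.3, 14.5 and 23.9 CPM in the 4 animals and 19.5, 30.5 and 42.4 CPM in saline-treated animals, with overlap. Its log2 fold change was -0.73 ± 0.19 (adjusted p = 0.497). LOC102552467 had 21.0, 13.4, 13.1 and 23.5 CPM against 21.8, 27.2 and 42.0 CPM, with -0.69 ± 0.18. LOC102548847, head to head with Ptprn2, an autoantigen gene of secretory granules, had 11.8, 12.8, 13.1 and 14.5 CPM against 13.3, 17.9 and 21.5 CPM, with -0.64 ± 0.17 (adjusted p = 0.58). In the combination, LOC102551889 had -0.29 ± 0.13, LOC108350210, opposite to the phosphodiesterase gene Pde4d, -0.44 ± 0.20 and LOC103693676 -0.41 ± 0.19, with adjusted p of 1.

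**Figure D4:**
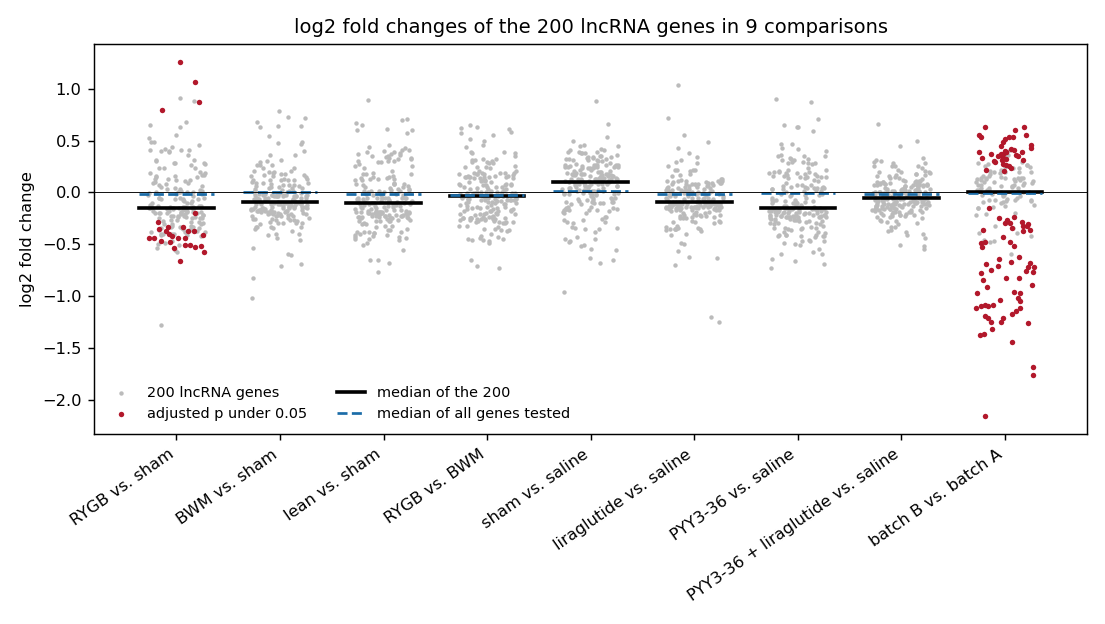
The log2 fold changes of the 200 lncRNA genes in 9 comparisons. Each point is a gene, red at adjusted p under 0.05, solid bars are medians of the 200 and dashed bars medians of all genes tested. Red points occur in RYGB vs. sham (28) and batch B vs. batch A (104) only, and the comparisons share control libraries.

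The batches differed most, in 104 of the 200 genes. Batch B was compared with batch A by the batch term of the same fit, which rests on the groups present in both. By the rule of size, 24 genes (12%) were lower in batch B and 0 higher, against 4.42% and 0.581% of all genes. By adjusted p alone 64 (32%) were lower and 40 (20%) higher, against 21.4% and 19.3%. Of all lncRNA genes tested, 14.1% were lower by the rule of size, and by adjusted p alone 25.9% were lower and 5.41% higher. The median over the 200 was -0.00, over all genes -0.01 and over all lncRNA genes tested -0.23. The choice of the 200 used 37 libraries of batch A and 28 of batch B. Ranking by batch A alone kept 192 of them and by batch B alone 181, so membership itself depends on batch. The batches also differed in period and in the size of the library fragments, about 285 bp in batch A and 335 bp in batch B, and in depth, with median totals of 29571658 and 23386048 counts. These cannot be told apart.

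The 3 most abundant genes were all lower. Miat, with the levels given above, had a log2 fold change of -1.76 ± 0.16 (adjusted p = 8.77e-13), which is 0.294-fold, Meg3 -1.37 ± 0.13 (adjusted p = 3.09e-12) and Bc1 -1.10 ± 0.21 (adjusted p = 2.83e-05). These 3 made up 35.1% of the counts of the 200 genes in the median library of batch A and 17.9% in batch B. The share of the library on the 200 genes was 0.692% and 0.499%, and without the 3 genes it was 0.448% and 0.408%.

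Next by adjusted p were LOC102556093 at -1.12 ± 0.11 (adjusted p = 3.22e-12), LOC102547322 at -1.21 ± 0.12, LOC103690083 at -1.25 ± 0.14 and LOC103691231 at -1.25 ± 0.14. LOC102547322 had 29.1, 62.2 and 114.8 CPM in batch A and 14.9, 23.8 and 38.3 CPM in batch B, so that the median of batch A was above every library of batch B. The largest difference, named after its value was seen, was that of LOC102550527, 7530 bases from Cd46, at -2.16 ± 0.26 with 0.695, 11.7 and 25.2 CPM against 0.551, 2.47 and 6.23 CPM. All 24 genes also met the rule when only the 4 groups present in both batches were fitted. The batch term of the full fit rests on these same libraries, so this is not a separate check. All 24 passed by adjusted p in each of 65 fits that left out 1 library.

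In 1 stretch of chromosome 1, 4 lncRNA genes in a row were lower. LOC108349633, LOC103691231, LOC108349634 and LOC102546798 lie one after another on the minus strand between chr1:194846855 and chr1:195014151, and all 4 met the rule with -1.04 to -1.25. The nearest protein coding gene was Nupr1 for LOC108349633 and LOC103691231, at 77336 and 86960 bases, and Snurf for LOC108349634 and LOC102546798, at 105076 and 60177 bases. Since 98.5% or more of the values of these 4 genes were fractional, their reads were partly shared, and they are not independent of each other.

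The difference varied with exon length. Of the 40 genes with over 5 kb of exon, 23 (57.5%) were lower, against 36.5% of all genes and 41.3% of all lncRNA genes of that length. By the rule of size 13 (32.5%) were lower, against 5.64% and 23.2%, and the median of the 40 was -0.66, against -0.16 and -0.55. The 34 genes of up to 1 kb had a median of 0.20. All genes of that length had 0.19, and all lncRNA genes of that length -0.06. Of the 34, 11 (32.4%) were higher, against 33.9% and 7.93%, and 7 (20.6%) were lower, against 12.3% and 20.3%. Of the 63 genes farther than 5 kb from any protein coding gene, 14 (22.2%) met the rule, against 12% of the 200. These 14 include the 4 genes in a row on chromosome 1, which are not independent of each other. Bc1 and Meg3, with 153 and 1890 exon bases, were lower at short length, as the plot against exon length shows.

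**Figure D5:**
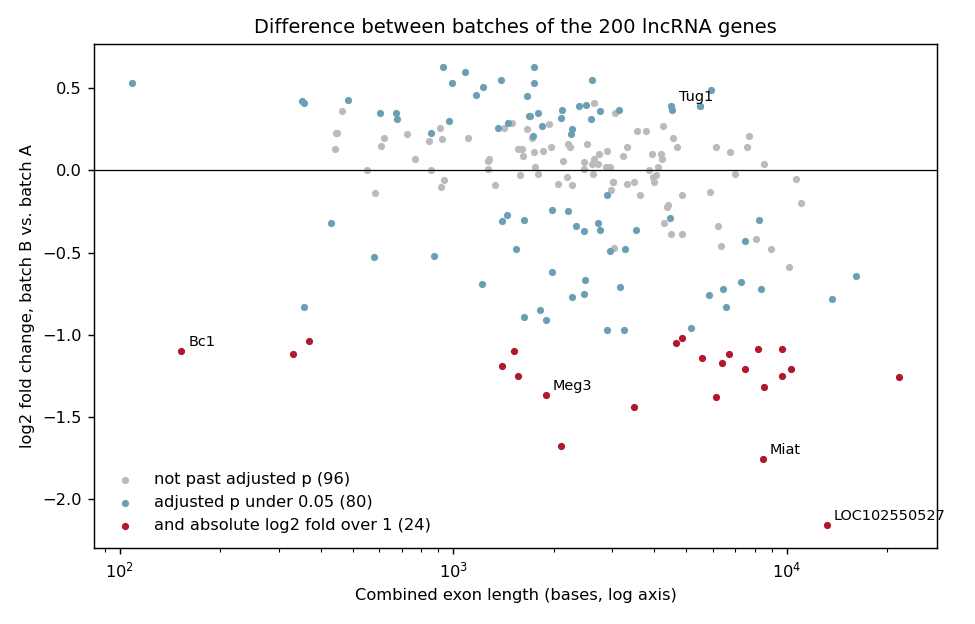
The log2 fold change, batch B vs. batch A, of the 200 lncRNA genes against combined exon length in bases on a log axis. Grey points did not pass (96), blue passed adjusted p only (80) and red also exceeded 1 (24). Of the genes over 5 kb, 13 are red, and LOC102550527 is lowest at -2.16.

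In the opposite direction, Tug1 was higher in batch B by 0.39 ± 0.07 (adjusted p = 2.18e-06), with 48.7, 65.2 and 92.9 CPM in batch A and 57.8, 77.8 and 108.3 CPM in batch B, and wide overlap. Of the 7 microRNA hosts, Meg3, Ftx, Lnc215 and LOC108352531 were lower and LOC100911992 was higher. Ftx, which contains Mir421 and Mir374b, had 10.3, 21.7 and 34.0 CPM in batch A and 5.58, 9.77 and 16.7 CPM in batch B, a log2 fold change of -0.89 ± 0.11 (adjusted p = 3.47e-09). Lnc215, with Mir100, Mirlet7a-2 and Mir125b1, had 17.5, 79.3 and 124 CPM against 16.1, 40.1 and 71.2 CPM, and -0.71 ± 0.16 (adjusted p = 0.000377). LOC108352531, with Mir135b, had -0.72 ± 0.14, and LOC100911992 had 0.26 ± 0.09 (adjusted p = 0.0205). Gas5 had -0.32 ± 0.10 (adjusted p = 0.0091).

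Between batches the median sum of oligodendrocyte markers was 15200 CPM in batch A and 23800 CPM in batch B, that of meningeal markers 799 and 226 CPM and that of blood markers 33.1 and 136 CPM. With the marker means of pituitary, choroid plexus and meninges in the fit, 22 of the 200 genes met the rule. With those of habenula and thalamus, cortex and striatum 23 did, while the part of the oligodendrocyte and blood markers was not tested. Of the 28 genes that passed in RYGB- vs. sham-treated animals, 16 (57.1%) also passed between batches, near the 52% of all 200, and they were 15.4% of the 104. Batch was a term of that fit.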

How the data were processed

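Poly-A RNA of 65 rat hypothalami was sequenced by the authors as stranded single-end reads of 75 nt. Per the submitters' processing notes and the study's methods, reads were trimmed with cutadapt (1.16 among other versions), mapped to Rnor_6.0 with STAR 2.7.2b and counted per gene with featureCounts 1.6.4, by strand. The deposited values are estimated counts and need not be whole, because the authors split reads with several alignments or overlapping genes in equal parts, so a gene and its close copies divide their reads. They were rounded to whole numbers here.

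The 200 members, the gene lists and the tests were chosen with earlier results of these data known. All genes of the table were fitted in edgeR 4.0.16 (R 4.3.3) with a quasi-likelihood test, a term for group and one for batch over all 65 libraries, TMM scaling and filterByExpr (minimum count 10, minimum total 15). P-values were adjusted by Benjamini-Hochberg over 21871 genes. A call needed an adjusted p under 0.05 and a change of over 1 on the log2 scale, up or down. The p-values are two-sided and measure the spread between animals. Replicate pairs differed by more than counting noise, with a chi-square per degree of freedom of 17.7 or more. The statistics were tested on simulated data with known changes in groups. The simulated counts held no difference between batches, so fits in the presence of one were not checked.

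Genes named are the 12 highest, up to 6 called in each direction per comparison (12 for RYGB vs. sham), or where none was called the 3 with the smallest p, the members of lists of known lncRNA genes, the 3 on each side of the rank threshold, and the 3 with the largest and the smallest spread. No gene was called in 3 or more comparisons. Alternatives were DESeq2 1.42.0, its size factors, no filter, counts not rounded, no batch term and the mean log2(CPM + 1) of marker lists as covariates. Further alternatives were the compared groups alone, single batches, saline controls, other rankings and leaving out each library. Leaving out the 8 libraries low in hypothalamic transcription factors, and BWM 5, was added after the data were seen.

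Replicate numbers carry no stated meaning. Deviations of same-numbered libraries correlated above 0.1 in all 5 pairs of liraglutide and saline (0.20 to 0.42), where all 10 libraries correlated best with their own number, and a fit with the replicate number as a block also called 0 of the 200 genes there. Coordinates are on Rnor_6.0 as deposited, and sequences are from RefSeq on GRCr8. No gene carries the symbol Malat1 or Neat1 in the deposited counts, so neither could be ranked under that name. Depth was 20041010 to 36539941 counts per library.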

Additional observations from a re-analysis of the deposited data

Results flagged for a closer look

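A library stood apart from the others of its group, by the 95% critical value of Dixon's test, in 6 of 84 sets of 4 to 10 libraries examined for the 12 most abundant genes and the shares of the library. Chance alone gives about 1 in 20.

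Meg3 (RGD1566401) had 2273 CPM in BWM replicate 5, against 778 to 1221 CPM in the other BWM animals. That library held 79600 CPM of pituitary marker genes, and the part of these in the level of Meg3 was not tested. Lean replicate 6 stood apart in 3 genes. Bc1 had 1138 CPM there against 404 to 668 CPM in the other lean animals, LOC108349561 had 244 CPM against 128 to 138 CPM, and LOC100910455 had 189 CPM against 81.5 to 95.4 CPM. LOC100911029 had 176 CPM in saline replicate 4 against 126 to 141 CPM in the other saline animals. LOC100910455, whose values were all fractional, had 149 CPM in PYY3-36 + liraglutide replicate 10 against 83.2 to 118 CPM.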

How the results depend on the processing

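In RYGB vs. sham, the 2 genes called became 0 with saline animals as controls and 0 in batch A alone. They became 1 with the marker means of habenula and thalamus, cortex and striatum as covariates. The number was also 1 without the 8 libraries (with or without BWM 5), 6 with no batch term and 7 in batch B alone. The 28 genes at adjusted p under 0.05 became 0 against saline, 4 in batch A, 15 without the 8 libraries (with or without BWM 5) and 66 with no batch term. The median of -0.15 became -0.05 against saline. Leaving out 1 library gave 1 to 4 called genes, with 4 without sham replicate 1 and 1 without RYGB replicates 9, 12 and 13 or sham replicates 2, 3 and 5, and 15 to 63 genes at adjusted p under 0.05. Without the batch term, BWM vs. sham gave 1 called gene and 13 at adjusted p under 0.05, and lean vs. sham 7 and 26, in place of 0. Against saline the BWM median was 0.01. RYGB vs. BWM gave 1 gene at adjusted p under 0.05 with these regional marker means. Leaving out a library gave 0 to 1 (1 without BWM replicate 4 or RYGB replicate 11). Lean vs. sham gave 0 to 11, and sham vs. saline 0 to 2 with 0 to 1 called. Ranking by TPM kept 133 of the 200 genes. The counts of genes called or passing in this section are of the 200 only, without the share of all genes in each fit. They do not show how the 200 stand against other genes.

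In comparisons other than liraglutide vs. saline, not every same-numbered pair of libraries correlated above 0.1, and 0 to 3 libraries per comparison correlated best with their own number, so they share only a number. With the replicate number as a block, RYGB vs. sham gave 1 called gene. Batch B vs. batch A gave 49 genes at adjusted p under 0.05 in place of 104. In every group present in both batches, batch A libraries carry the lower replicate numbers and batch B libraries the higher. The block therefore overlaps with batch, and the fit with it cannot show how much of the batch difference is apart from the number. With this block LOC100910558 reversed between batches to -0.09, and against saline LOC103693391 reversed to 0.09. Leaving out libraries gave 22 to 25 called genes between batches. The cause of these changes was not tested. Of single named genes, 775 of the values under the alternatives other than leaving out a library kept direction and side of the threshold, 164 no longer passed and 5 newly passed. The fractional counts limit genes with copies, and depth limits those near 6 CPM.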
